A study of Arabidopsis thaliana with 36 samples.

Results

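Basal hypocotyl segments of ahk3 ahk4, an Arabidopsis thaliana double mutant of cytokinin receptor genes, were compared between 16 h and 0 h after wounding. The comparison rests on 6 of the study's 36 libraries, 3 of ahk3 ahk4 basal segments at 16 h and 3 of ahk3 ahk4 basal segments at 0 h, and on every gene locus in the count files, 32833 in all. The libraries were taken by their labelled genotype, segment and time. The comparison and the gene lists were chosen with earlier results of these data known. The hypocotyl is the stem of the seedling between root and cotyledons. Seedlings had grown for 5 days in low light and were then cut just above the junction of root and shoot. Pieces 2 to 3 mm long were taken from the base of the hypocotyl, next to the cut, or from its middle. Other groups enter only where a sentence names them: ahk3 ahk4 basal segments at 8 h, ahk3 ahk4 medial segments at 16 h and 0 h, and basal segments of wild type (WT, Col-0) at 16 h and 0 h, each with 3 libraries. The labels give no allele for either receptor gene and no number of seedlings per library. All libraries, those of 0 h included, came from cut hypocotyls, and uncut ones of the later hour are not among the groups, so time since the cut and hour of sampling cannot be told apart.

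Cytokinins are hormones sensed by histidine kinase receptors, of which Arabidopsis has AHK2, AHK3 and AHK4. An activated receptor passes a phosphate through AHP proteins to response regulators. Type-B regulators are transcription factors that switch on the type-A regulators, whose transcripts serve as a readout of cytokinin signalling. Auxin works in the opposite sense in many root tissues: it starts the founder cells of lateral and adventitious roots, where cytokinin restrains them. A severed hypocotyl can grow adventitious roots near its cut base, and the study's title names the competence of cells for that reprogramming.

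Values are 3' mRNA tags as CPM, the usual per-library scaling of counts, relative to TMM-adjusted library totals, and they are given in the order of replicates 1, 2 and 3. A log2 change is the log2 fold change, 16 h over 0 h unless another pair is named. It stands with its standard error and with the p of the quasi-likelihood test of edgeR, adjusted after Benjamini and Hochberg. Of the 32833 loci, 19819 passed the filter on low counts and were tested. At an adjusted p under 0.05, 9303 genes (46.9% of those tested) were called, 4905 (24.7%) higher at 16 h and 4398 (22.2%) lower at 16 h. The libraries of the groups did not overlap in 10707 genes (54%), and the median log2 fold change of all tested genes was 0.04. Counts of list members below are read against these shares. Nothing says whether replicates came from separate plates or days, so the p-values measure the spread between these samples.

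Assigned reads ran from 6136167 to 11200156 over the 6 libraries, which differed in more than the hour. Reads that aligned at more than 1 place, which the count files keep apart from the genes, made up 5.54%, 2.98% and 15.1% of the 16 h libraries, against 54.3%, 60.3% and 44.2% of the 0 h libraries. The groups did not overlap in this multi-mapped share (exact two-sided permutation p = 0.1, the smallest that 3 against 3 samples can give). The organelle genomes supplied 0.54% ± 0.35 of assigned reads at 16 h and 2.4% ± 0.29 at 0 h (SD, n = 3 each; exact permutation p = 0.1). Between these groups the multi-mapped share and the hour cannot be told apart. In a fit over all 36 libraries that carried the share as a covariate, 51.9% of the calls were made again in the same direction. In WT basal segments 37.8% of genes were called at 16 h against 0 h, 20% higher and 17.8% lower. In ahk3 ahk4 medial segments, where the share overlapped between 16 h (19.9% to 30.7%) and 0 h (18.5% to 39.8%), 35.3% of genes were called, 19.2% higher and 16.1% lower. Replicate 3 of the 16 h group stood apart with its 15.1%, and without it 89.6% of the calls were made again. Where a list's count of calls moved by more than 1.5 times, or to or off 0, with the covariate or without this library, that count is given beside the list.

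The receptor genes came first as a check of the labels. AHK3 had 2.59, 3.02 and 3.75 CPM at 16 h, against 8.71, 3.38 and 8.63 CPM at 0 h (log2 change -1.17 ± 0.37, adjusted p = 0.0084), with 1 library of each group overlapping. In the 18 WT libraries of the study it ranged from 43.9 to 164 CPM. AHK4 had 1.43, 0.804 and 0.0986 CPM at 16 h, against 0.726, 0.161 and 0.305 CPM at 0 h, and its difference between the hours did not pass the test (adjusted p = 0.28). In WT libraries it ranged from 2.52 to 14.1 CPM. All 18 ahk3 ahk4 libraries lay below all 18 WT libraries for both genes. AHK2, the receptor gene that the genotype leaves intact, had 1.43, 0.502 and 1.58 CPM at 16 h, against 2.696, 6.92 and 5.28 CPM at 0 h (log2 change -2.06 ± 0.59, adjusted p = 0.0043). The transcript of the remaining receptor was thus also lower at 16 h, with no overlap between the groups. Neither AHK3 nor AHK2 was called between the hours with the multi-mapped share as a covariate. The 3' tags do not show whether a shortened receptor transcript is made.

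Genes that report on cytokinin signalling and supply the hormone were mostly lower at 16 h. Of the 8 tested type-A response regulators, 6 fell and none rose (median log2 fold change -1.99). ARR4 had 16.4, 16.9 and 11.8 CPM at 16 h, against 83.2, 87.6 and 75.5 CPM at 0 h (log2 change -2.45 ± 0.23, adjusted p = 3.7e-11). ARR6 had 3.31, 4.12 and 2.37 CPM at 16 h, against 25.3, 23.7 and 21.1 CPM at 0 h (log2 change -2.83 ± 0.48, adjusted p = 8.0e-06). In both genes all 16 h libraries lay below all 0 h libraries, and in ARR5 the group means were 4.72 ± 2.18 CPM at 16 h and 69.4 ± 14.7 CPM at 0 h (SD, n = 3 each). With the multi-mapped share as a covariate 3 members were called lower. In WT basal segments 5 of the 8 were called lower.

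Among the 11 tested genes of cytokinin synthesis and activation 6 fell and 1 rose (median -1.93). IPT5 and IPT3 encode isopentenyltransferases, which make the first committed step. IPT5 had 10.4, 8.14 and 8.97 CPM at 16 h, against 32.97, 36.05 and 36.1 CPM at 0 h (log2 change -1.93 ± 0.35, adjusted p = 2.5e-05), and IPT3 had 3.93, 4.72 and 8.38 CPM at 16 h, against 25.2, 38.5 and 19.2 CPM at 0 h (log2 change -2.28 ± 0.50, adjusted p = 3.2e-04). LOG5, whose family releases the active free base, was near its limit of detection at 16 h with 0, 0 and 0.394 CPM, against 9.44, 4.67 and 13.4 CPM at 0 h (log2 change -6.02 ± 1.1, adjusted p = 2.4e-05). Every 16 h library lay below every 0 h library in these 3 genes. The gene that rose, IPT2, modifies tRNA and had 6.97, 8.74 and 5.03 CPM at 16 h, against 3.63, 3.06 and 1.22 CPM at 0 h (log2 change 1.4 ± 0.43, adjusted p = 0.0079). With the covariate 2 members were called lower and none higher. None of the 5 tested cytokinin oxidase genes, which break the hormone down, was called.

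AHP1, which carries the phosphate between receptor and regulator, was the only one of the 8 tested receptor and phosphotransfer genes that rose, with 199.8, 216 and 118 CPM at 16 h, against 52.4, 55.4 and 56.96 CPM at 0 h (log2 change 1.7 ± 0.30, adjusted p = 1.4e-05). AHP2, AHP3, AHP4 and AHP5 were not called. With the covariate none of the 8 was called higher and 1 was called lower. Of the 5 tested cytokinin response factors, transcription factors of the AP2/ERF family, CRF3 rose (12.7, 7.14 and 12.8 CPM at 16 h, 3.11, 2.897 and 0.508 CPM at 0 h, log2 change 2.34 ± 0.56, adjusted p = 7.5e-04) and CRF6 fell (4.64, 2.41 and 4.54 CPM at 16 h, 14, 10.5 and 19.2 CPM at 0 h, log2 change -1.91 ± 0.37, adjusted p = 6.1e-05). Such a count, 1 in each direction, was close to the shares of all tested genes.

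**Figure D1:**
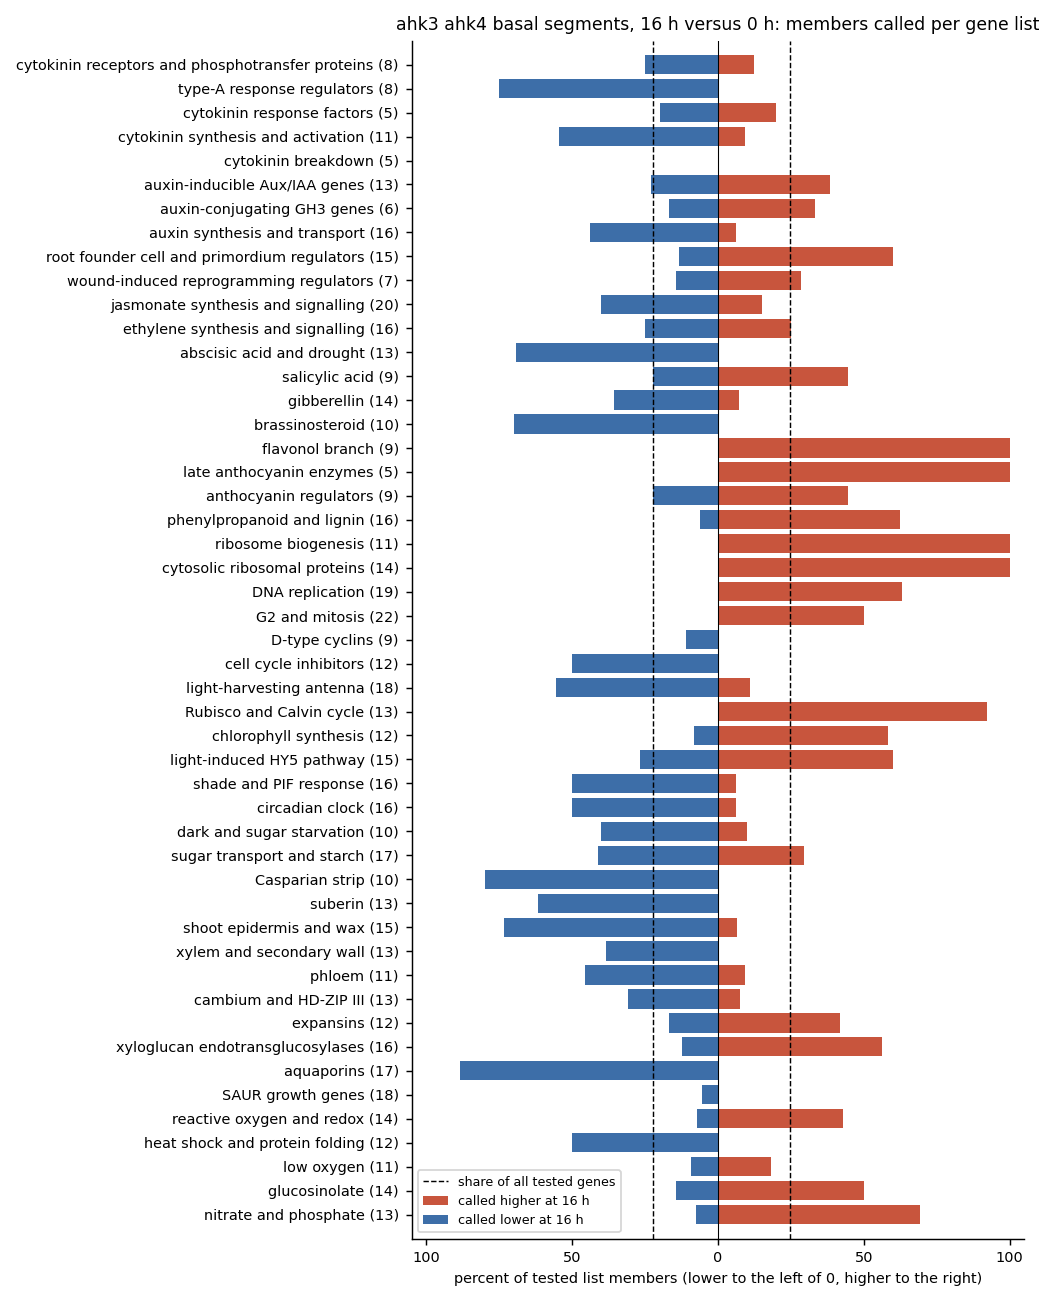
Share of the tested members of each gene list that was called lower (bars to the left of 0) or higher (bars to the right) at 16 h in ahk3 ahk4 basal segments, in percent, with the number of tested members after the list's name; dashed lines mark the shares of all tested genes, 22.2% lower and 24.7% higher. The flavonol, late anthocyanin, ribosome biogenesis and ribosomal protein lists reach 100% higher, and the aquaporin, Casparian strip, type-A regulator and epidermis lists lie mostly to the left.

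Among regulators of root founder cells and early primordia more genes rose than fell in the mutant base. Of 15 tested, 9 rose and 2 fell (median 2.06), and the WT base gave the same counts of 9 and 2. WOX11, a homeobox gene that marks the first founder cells of adventitious roots, had 3.75, 5.13 and 5.72 CPM at 16 h, against no read in any library at 0 h (thus at least 41.4-fold higher, with adjusted p = 3.6e-06). LBD16, an auxin-induced activator of founder cell division, had 61.2, 38.9 and 68.3 CPM at 16 h, against 12.7, 18.7 and 9.24 CPM at 0 h (log2 change 2.06 ± 0.36, adjusted p = 1.3e-05). GATA23, which sets founder identity in lateral roots, had 11.4, 7.84 and 9.47 CPM at 16 h, against 0.726, 1.45 and 0.914 CPM at 0 h (log2 change 3.23 ± 0.83, adjusted p = 0.0017). In each of these the libraries at 16 h all lay above those at 0 h.

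Several genes that act after the founder step were also higher. PLT3, an AP2-type regulator of primordium outgrowth, had 25.8, 26.8 and 22.2 CPM at 16 h, against 2.18, 5.79 and 2.84 CPM at 0 h (log2 change 2.82 ± 0.44, adjusted p = 2.0e-06). PUCHI, which bounds the young primordium, had 3.57, 3.22 and 5.92 CPM at 16 h, against 0.207, 0 and 0 CPM at 0 h (54.2-fold higher by summed reads, 95% counting interval 14.7 to 452, adjusted p = 5.1e-04), and its 8 h mean was still 0.217 CPM. LBD33 reached 1.07, 1.71 and 0.6902 CPM and had no read in any library at 0 h (thus at least 9.86-fold higher, with adjusted p = 0.012). PLT5, LBD17 and MAKR4, which acts in lateral root priming, completed the set of risers, with no overlap between the groups in any of the 9. The genes that fell were TMO5, a vascular bHLH factor (14.3 ± 3.18 CPM at 16 h and 34.8 ± 5.599 CPM at 0 h, SD, n = 3 each, log2 change -1.28 ± 0.31, adjusted p = 8.0e-04), and SHR, the mobile regulator of endodermis (20.19, 31.5 and 19.3 CPM at 16 h, 35.2, 29.1 and 43.05 CPM at 0 h, log2 change -0.60 ± 0.25, adjusted p = 0.048). The groups overlapped in SHR, which was not called when some single libraries were left out (adjusted p up to 0.2), and without 16 h replicate 3 the list had 1 fall. ARF7, ARF19, SCR and WOX12 were not called. WOX5, LBD18, LBD29, PLT1, PLT2, PLT7 and WOX7 did not pass the filter on low counts. With the multi-mapped share as a covariate 5 members were called higher.

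Auxin-responsive genes moved in both directions. Of the 13 tested auxin-inducible Aux/IAA genes, which encode repressors that auxin induces and destabilises, 5 rose and 3 fell (median 0.91). IAA14, the repressor of founder cell activation known as SOLITARY-ROOT, had 21.2, 8.74 and 39.9 CPM at 16 h, against 0.829, 0.322 and 1.83 CPM at 0 h (log2 change 4.45 ± 0.56, adjusted p = 5.9e-08). IAA5 had 5.09, 5.83 and 5.33 CPM at 16 h, against 0, 0 and 0.203 CPM at 0 h (69.4-fold higher by summed reads, 95% counting interval 18.9 to 578, adjusted p = 6.7e-06). IAA19 had 4.82, 4.62 and 8.48 CPM at 16 h, against 1.66, 0.644 and 2.33 CPM at 0 h (log2 change 1.89 ± 0.60, adjusted p = 0.01). The 16 h libraries lay above the 0 h libraries in all 3, and replicate 2 was lowest at 16 h in IAA14 and IAA19. IAA1 and IAA4 were the others that rose.

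IAA3, or SHORT HYPOCOTYL 2, a target of cytokinin signalling in the root, went the other way with 15.01, 9.95 and 11.8 CPM at 16 h, against 45.8, 38.95 and 58.4 CPM at 0 h (log2 change -1.96 ± 0.24, adjusted p = 1.7e-08). IAA13 and IAA12 also fell (log2 fold changes -0.89 and -0.72, adjusted p = 0.018 and 0.021). Without 16 h replicate 3, 3 members were called higher and 1 lower. Of the 6 tested GH3 genes, whose enzymes conjugate auxin to amino acids, GH3.6 rose to 23.1 ± 2.69 CPM at 16 h, against 9.29 ± 0.767 CPM at 0 h (SD, n = 3 each), with no overlap between the groups (log2 change 1.31 ± 0.26, adjusted p = 1.0e-04). GH3.1 rose with 1.52, 0.603 and 5.23 CPM at 16 h, against no read in any library at 0 h (thus at least 20.8-fold higher, with adjusted p = 0.0031), and GH3.17 fell (log2 change -0.79 ± 0.30, adjusted p = 0.03). No GH3 gene was called lower without 16 h replicate 3.

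Genes of auxin synthesis and transport were lower more often than higher, with 1 of 16 tested higher and 7 lower (median -0.58). The influx carriers LAX3 (38.3, 31.3 and 28.4 CPM at 16 h, 90.5, 86.9 and 92.6 CPM at 0 h, log2 change -1.46 ± 0.24, adjusted p = 3.7e-06), LAX1, LAX2 and AUX1 fell. The efflux gene ABCB19 fell too, with 15.01, 9.85 and 20.11 CPM at 16 h, against 39.3, 40.4 and 44.7 CPM at 0 h (log2 change -1.47 ± 0.25, adjusted p = 1.1e-05). YUC6, of the flavin monooxygenases that make auxin, had 0.893, 1.11 and 2.07 CPM at 16 h, against 10.99, 13.7 and 9.04 CPM at 0 h (log2 change -3.04 ± 0.75, adjusted p = 0.0011), and YUC3 also fell. In the 3 genes given with values the groups did not overlap.

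**Figure D2:**
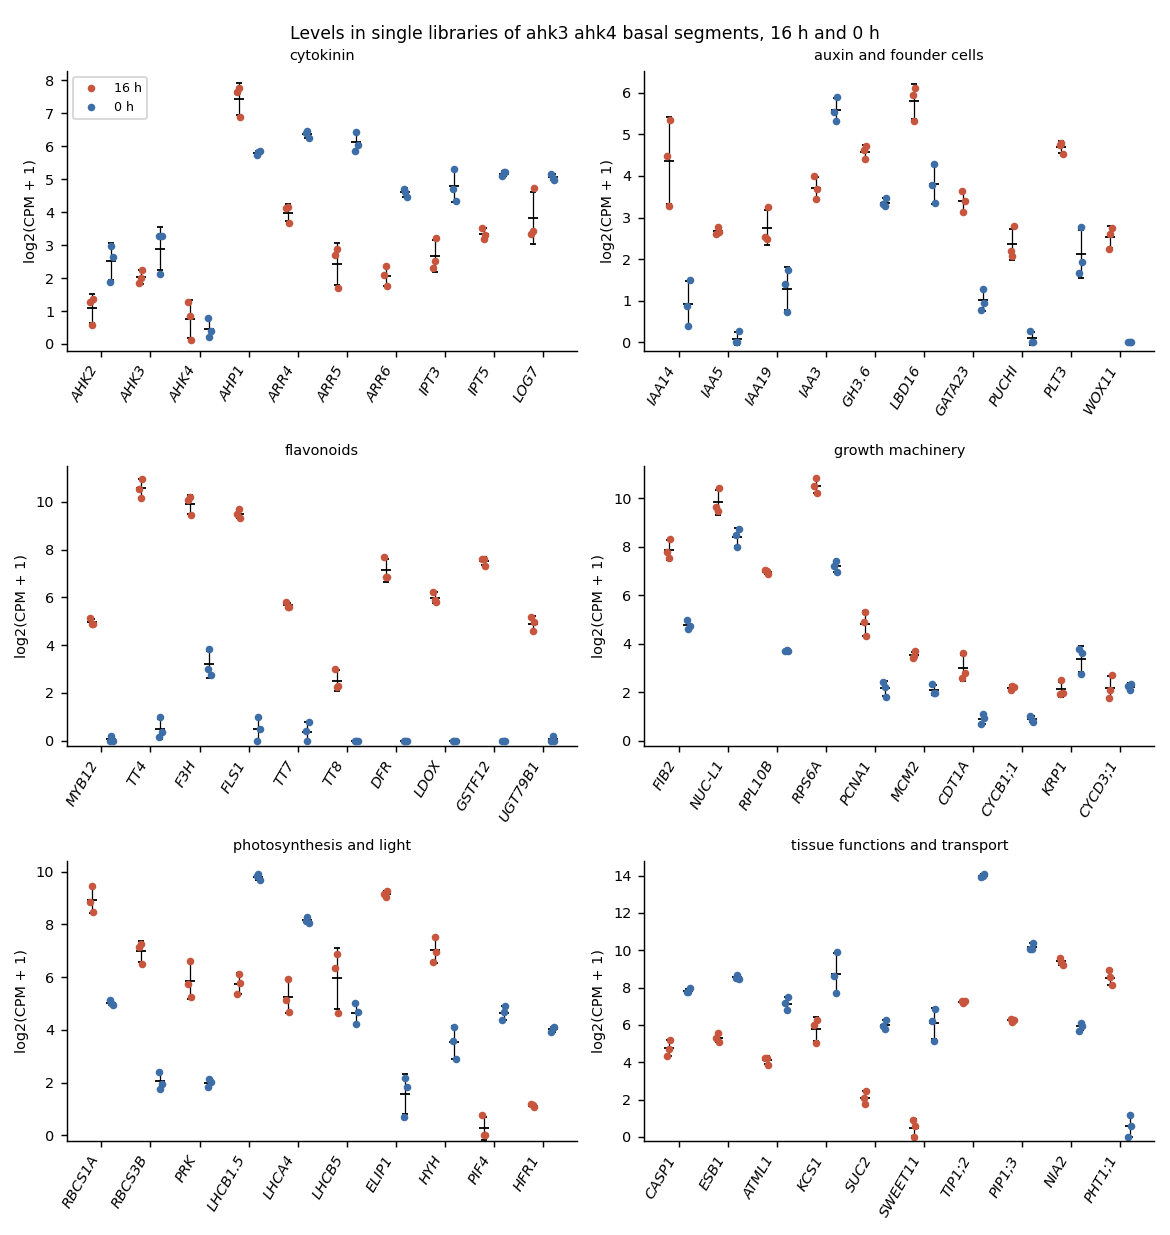
Level of 60 named genes in single libraries of ahk3 ahk4 basal segments, as log2(CPM + 1), with 16 h (red, left of each pair) and 0 h (blue, right) and black bars for the mean ± SD of 3 libraries. Flavonoid genes other than F3H sit at 1 or lower in every 0 h library and above 2 at 16 h, whereas TIP1;2, PIP1;3, CASP1 and LHCB1.5 are lower in all 16 h libraries.

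The wound list, regulators of callus formation and tissue reunion, gave 2 rises and 1 fall among 7 tested. These counts were close to the shares of all tested genes (24.7% higher and 22.2% lower). RAP2.6 had 33.8, 53.1 and 48.2 CPM at 16 h, against 17.63, 12.6 and 8.63 CPM at 0 h (log2 change 1.8 ± 0.30, adjusted p = 7.5e-06), RAP2.6L rose by 1.13 on the log2 scale (adjusted p = 0.0069), and PAT1, a GRAS factor, had 71.7, 69.2 and 66.8 CPM at 16 h, against 130.5, 189 and 160.5 CPM at 0 h (log2 change -1.21 ± 0.25, adjusted p = 1.2e-04). WIND1 stood at 159.5 ± 52.6 CPM at 16 h and 177 ± 8.92 CPM at 0 h (SD, n = 3 each) and was not called (adjusted p = 0.72). ERF115, RRTF1 and ANAC096 were not called either. With the covariate 1 member of the list was called higher and 2 lower, and without 16 h replicate 3 it was 2 in each direction.

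Of the stress hormone lists, that of abscisic acid was mostly lower at 16 h than in the freshly cut base. Of 13 tested genes of abscisic acid and drought, 9 fell and none rose (median -2.68). ABI2, a phosphatase induced by the hormone, had 2.59, 2.01 and 7.49 CPM at 16 h, against 88.02, 102 and 94.4 CPM at 0 h (log2 change -4.56 ± 0.53, adjusted p = 3.1e-08). HAI2, another such phosphatase, had 1.61, 1.21 and 0.789 CPM at 16 h, against 41.9, 48.5 and 29.6 CPM at 0 h (log2 change -5.03 ± 0.62, adjusted p = 4.1e-08). RD29B, a desiccation marker, had 0.357, 0 and 0.296 CPM at 16 h, against 40.2, 38.1 and 64.99 CPM at 0 h (log2 change -7.67 ± 0.80, adjusted p = 8.3e-10). All 16 h libraries lay below all 0 h libraries in these genes. With the multi-mapped share as a covariate 5 were called lower.

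Of 20 tested jasmonate genes 8 fell and 3 rose (median -0.92). MYC2, the central transcription factor of the pathway, had 23.9, 23.6 and 30.9 CPM at 16 h, against 155, 135 and 189.7 CPM at 0 h (log2 change -2.61 ± 0.26, adjusted p = 1.5e-10). JAZ2, a repressor that MYC2 induces, had 6.88, 8.44 and 20.02 CPM at 16 h, against 57.96, 56.2 and 67.9 CPM at 0 h (log2 change -2.37 ± 0.35, adjusted p = 9.4e-07). VSP2, a wound protein gene, had 3.84, 2.61 and 3.85 CPM at 16 h, against 29.4, 29.9 and 19.4 CPM at 0 h (log2 change -2.93 ± 0.79, adjusted p = 0.0033). JAZ6, JAZ8 and JAZ9 were the risers, and none of the 3 was called with the covariate, which left 5 called lower.

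Of 16 tested ethylene genes 4 were called higher and 4 lower, close to the shares of all tested genes (24.7% higher and 22.2% lower). The risers included 3 genes of ACC synthase, the limiting enzyme of ethylene synthesis: ACS2 had 10, 13.3 and 12.1 CPM at 16 h, against 0.311, 2.25 and 3.15 CPM at 0 h (log2 change 2.64 ± 0.44, adjusted p = 6.1e-06). ACS7 had 15.2, 12.1 and 12.3 CPM at 16 h, against 1.35, 3.06 and 1.01 CPM at 0 h (log2 change 2.91 ± 0.81, adjusted p = 0.0038), and ACS8 had 2.95, 4.62 and 3.15 CPM at 16 h, against no read in any library at 0 h (thus at least 30.4-fold higher, with adjusted p = 4.5e-04). The signalling genes EIN2, EIN3 and EBF1 fell, EIN3 with 43.8, 38.3 and 40.1 CPM at 16 h, against 91.96, 72.6 and 129.6 CPM at 0 h (log2 change -1.27 ± 0.28, adjusted p = 3.7e-04). The groups did not overlap in any of these 6. With the covariate 2 falls were called.

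Growth hormone genes were lower where they were called, apart from 1 gibberellin gene. Of 10 tested brassinosteroid genes 7 fell and none rose (median -1.04), with CPD, a synthesis enzyme, at 9.38, 10.96 and 10.6 CPM at 16 h, against 41.3, 31.1 and 40.5 CPM at 0 h (log2 change -1.87 ± 0.22, adjusted p = 1.3e-08) and BRI1, the receptor, at 24.03, 44.4 and 45.8 CPM at 16 h, against 95.8, 112 and 92.6 CPM at 0 h (log2 change -1.39 ± 0.26, adjusted p = 4.3e-05). With the covariate 3 members were called lower. Of 14 tested gibberellin genes 5 fell and 1 rose. The DELLA repressor gene RGA had 4.91, 2.31 and 6.11 CPM at 16 h, against 21.4, 28.8 and 35.1 CPM at 0 h (log2 change -2.67 ± 0.43, adjusted p = 3.6e-06), while GA2OX2, which inactivates the hormone, had 5.72, 6.53 and 8.68 CPM at 16 h, against 1.24, 0.644 and 2.03 CPM at 0 h (log2 change 2.37 ± 0.49, adjusted p = 1.3e-04). Of 9 tested salicylic acid genes 4 rose and 2 fell, and with the covariate none was called in either direction.

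With genes at or under 3 reads set to their bounds, the late anthocyanin and flavonol lists had the highest medians of the lists with tested members. All 9 tested genes of the flavonol branch were higher at 16 h, with a median log2 fold change of 6.99 as fitted and 6.83 with the bounds. TT4 encodes chalcone synthase, the entry enzyme, and had 1499, 1152 and 1993 CPM at 16 h, against 0.104, 0.966 and 0.305 CPM at 0 h (log2 change 11.88 ± 0.48, adjusted p = 1.8e-19). F3H had 1074, 1162 and 693 CPM at 16 h, against 6.95, 13.4 and 5.79 CPM at 0 h (log2 change 6.83 ± 0.37, adjusted p = 1.6e-16), and FLS1, the flavonol synthase, had 720.2, 828 and 643 CPM at 16 h, against 0, 0.966 and 0.406 CPM at 0 h (log2 change 10.79 ± 0.70, adjusted p = 1.6e-13). MYB12, the activator of these genes, had 33.8, 28.9 and 28.2 CPM at 16 h, against 0, 0.161 and 0 CPM at 0 h (781-fold higher by summed reads, 95% counting interval 139.9 to 30900, adjusted p = 1.3e-08). TT4 and FLS1 had at most a few reads per library at 0 h, and the groups did not overlap in the 4 genes given here. All 9 tested genes were higher at 16 h in WT basal segments and in ahk3 ahk4 medial segments.

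The late anthocyanin enzymes followed a later course. All 5 tested members were higher at 16 h, also with the multi-mapped share as a covariate and without 16 h replicate 3, and 4 of the 5 had no read at 0 h. Their median log2 fold change with bounds in place of fitted values was 9.57. UGT79B1, an anthocyanin glycosyltransferase, had 35.1, 22.8 and 30.1 CPM at 16 h, against 0, 0.161 and 0 CPM at 0 h (760-fold higher by summed reads, 95% counting interval 136 to 30050, adjusted p = 2.3e-11). AT5MAT, which adds a malonyl group, had 9.11, 1.81 and 6.01 CPM at 16 h, against no read in any library at 0 h (thus at least 49.6-fold higher, with adjusted p = 3.3e-08). DFR and LDOX averaged 146 and 62.8 CPM at 16 h, and their 8 h means were 0.229 and 0.0246 CPM. Among the 9 tested regulators 4 rose and 2 fell. TT8, a bHLH partner of the anthocyanin MYBs, had 7.06, 3.72 and 3.94 CPM at 16 h, against no read in any library at 0 h (thus at least 42.7-fold higher, with adjusted p = 4.2e-06). MYB90 had 37.8, 25.8 and 22.2 CPM at 16 h, against 0, 0 and 0.812 CPM at 0 h (log2 change 6.49 ± 0.48, adjusted p = 2.1e-12), whereas MYB75 had 1.697, 3.62 and 0.493 CPM at 16 h, against 0.311, 0 and 0.203 CPM at 0 h (log2 change 3.25 ± 1.06, adjusted p = 0.013). GL3 was the other riser, with overlapping groups, and TTG1 and the repressor MYBL2 fell. Without 16 h replicate 3, 1 regulator was called lower.

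Of the 16 tested genes of the general phenylpropanoid pathway 10 rose and 1 fell (median 1). PAL2, for the entry enzyme phenylalanine ammonia-lyase, had 476, 484 and 429 CPM at 16 h, against 146, 122 and 142 CPM at 0 h (log2 change 1.76 ± 0.23, adjusted p = 8.5e-08). C4H had 1347, 1907 and 1559 CPM at 16 h, against 596, 712 and 450.5 CPM at 0 h (log2 change 1.45 ± 0.22, adjusted p = 1.5e-06), and 4CL3, the ligase of the flavonoid side, had 22.3, 20.7 and 20.9 CPM at 16 h, against 2.696, 1.93 and 1.93 CPM at 0 h (log2 change 3.27 ± 0.40, adjusted p = 2.2e-08). Of the lignin-side genes HCT, CCR1, 4CL1 and 4CL2 were not called, and CAD5 fell (log2 change -0.82 ± 0.20, adjusted p = 8.4e-04). Most of the other lignin-side members, CYP98A3, CCOAOMT1, FAH1, OMT1 and CAD4, were among the 10 that rose. With the covariate 6 rises were called.

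Genes for making ribosomes rose together. All 11 tested ribosome biogenesis genes (median 1.46) and all 14 tested cytosolic ribosomal protein genes (median 2.78) were called higher. FIB2, the nucleolar fibrillarin, had 217, 184 and 322 CPM at 16 h, against 31, 23.3 and 25.5 CPM at 0 h (log2 change 3.18 ± 0.29, adjusted p = 2.4e-11). NUC-L1, nucleolin, had 794, 703 and 1356 CPM at 16 h, against 360.4, 254 and 424 CPM at 0 h, with 16 h replicate 3 well above the other 2 (log2 change 1.46 ± 0.32, adjusted p = 2.6e-04). RPL10B had 129, 126 and 117 CPM at 16 h, against 11.9, 12.4 and 12.2 CPM at 0 h (log2 change 3.35 ± 0.21, adjusted p = 7.9e-15), and RPS6A had 1452, 1831 and 1183 CPM at 16 h, against 146, 171 and 124 CPM at 0 h (log2 change 3.34 ± 0.22, adjusted p = 1.5e-14). The 16 h libraries lay above the 0 h libraries in each. All 14 ribosomal protein genes were called higher in every alternative run, in WT basal segments and in ahk3 ahk4 medial segments. These genes belong to families of near-identical copies, and reads that align to several copies were counted in none, so the level of a single copy is uncertain.

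Cell cycle genes of DNA synthesis were mostly higher. Of 19 tested replication genes 12 rose and none fell (median 1.49). PCNA1, the sliding clamp, had 28.8, 38.3 and 18.7 CPM at 16 h, against 4.35, 3.702 and 2.54 CPM at 0 h (log2 change 3.02 ± 0.40, adjusted p = 1.3e-07). CDT1A, a licensing factor, had 5.002, 11.3 and 6.01 CPM at 16 h, against 0.622, 1.13 and 0.914 CPM at 0 h (log2 change 3.07 ± 0.53, adjusted p = 1.2e-05), and MCM4, of the replicative helicase, had 20.6, 22.8 and 16.96 CPM at 16 h, against 2.59, 5.79 and 7.11 CPM at 0 h (log2 change 1.97 ± 0.35, adjusted p = 2.0e-05). The groups were apart in all 3, and 11 members were called higher with the covariate. MCM5, MCM6, FAS1, FAS2 and ORC1A were not called.

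The list for G2 and mitosis gave 11 rises and no fall among 22 tested (median 1.03), at low levels and with larger spread. CYCB1;1, a mitotic cyclin, had 3.22, 3.82 and 3.65 CPM at 16 h, against 1.04, 0.805 and 0.711 CPM at 0 h (log2 change 2.05 ± 0.80, adjusted p = 0.033). AUR3, a mitotic kinase, had 5.09, 4.22 and 3.45 CPM at 16 h, against 0.518, 1.93 and 0.711 CPM at 0 h (log2 change 2.06 ± 0.60, adjusted p = 0.005), and CYCA2;3 had 2.95, 3.22 and 1.68 CPM at 16 h, against 0.104, 0.966 and 0.203 CPM at 0 h (log2 change 2.7 ± 0.97, adjusted p = 0.021). These genes were called in the mutant base, while 1 of the 22 was called higher in WT basal segments (median 0.385) and 1 in ahk3 ahk4 medial segments (median 0.563). In tests of the difference itself none of the 22 changed differently between genotypes, and 2 changed differently between regions. Of all tested genes 2.4% differed between genotypes and 17% between regions. With the covariate 1 member was called higher, and without 16 h replicate 3, 1 was called lower. Of 9 tested D-type cyclins, which carry growth signals into the cycle, CYCD1;1 fell (14.9, 7.64 and 15.9 CPM at 16 h, 97.7, 107 and 74.1 CPM at 0 h, log2 change -2.86 ± 0.31, adjusted p = 1.8e-09) and none rose, while the covariate gave 2 falls. CYCD3;1, a classical cytokinin target, had 2.41, 3.22 and 5.62 CPM at 16 h, against 3.84, 3.22 and 4.06 CPM at 0 h (adjusted p = 0.99). Of 12 tested inhibitors of cyclin-dependent kinases 6 fell and none rose. KRP1 had 2.77, 4.62 and 2.86 CPM at 16 h, against 12.7, 5.79 and 11.3 CPM at 0 h (log2 change -1.54 ± 0.47, adjusted p = 0.007), and KRP4 had a log2 fold change of -1.77 (adjusted p = 0.0015). With the covariate 1 inhibitor was called lower.

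Photosynthesis genes split by function. All but 1 of the 13 tested genes of Rubisco and the Calvin cycle rose (median 3.99), whereas 10 of the 18 tested light-harvesting antenna genes fell and 2 rose (median -1.04). RBCS1A, a small subunit of Rubisco, had 457, 709.5 and 355 CPM at 16 h, against 34.01, 31.6 and 29.9 CPM at 0 h (log2 change 3.99 ± 0.29, adjusted p = 9.7e-14). PRK, phosphoribulokinase, had 52.6, 97.1 and 37.2 CPM at 16 h, against 2.59, 3.38 and 3.05 CPM at 0 h (log2 change 4.38 ± 0.39, adjusted p = 2.1e-11), and FBA2, an aldolase, had 131, 156 and 155 CPM at 16 h, against 7.36, 5.15 and 8.02 CPM at 0 h (log2 change 4.41 ± 0.35, adjusted p = 9.0e-13). Every 16 h library lay above every 0 h library in these. RCA, Rubisco activase, was the exception, at 38.2 ± 23.96 CPM at 16 h and 22.5 ± 6.102 CPM at 0 h (SD, n = 3 each, adjusted p = 0.11). Any read that aligned to more than 1 small subunit gene was counted in none, so the level of a single such gene is uncertain.

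Among antenna genes LHCB1.5 had 40.02, 68.95 and 54.03 CPM at 16 h, against 903, 958 and 823 CPM at 0 h (log2 change -4.04 ± 0.31, adjusted p = 3.4e-13). LHCB1.4 had 12.8, 24.02 and 7.99 CPM at 16 h, against 231, 226 and 366 CPM at 0 h (log2 change -4.2 ± 0.36, adjusted p = 1.3e-11), and LHCA4, of photosystem I, had 34.5, 60.5 and 24.8 CPM at 16 h, against 281, 312 and 265 CPM at 0 h (log2 change -2.84 ± 0.26, adjusted p = 4.1e-11). The risers were LHCB1.2 (10.9, 20 and 13.7 CPM at 16 h, 0.207, 4.83 and 1.01 CPM at 0 h) and LHCB5 (80.8, 116 and 24.3 CPM at 16 h, 31.4, 17.7 and 24.4 CPM at 0 h), and in LHCB5 the groups overlapped. Antenna genes are close copies of each other, and the counting left out reads shared between copies. Without 16 h replicate 3, 7 antenna genes were called lower, and with the covariate 1 was called higher.

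Of 12 tested genes of chlorophyll synthesis 7 rose and 1 fell (median 1.77). GUN5, a subunit of Mg-chelatase, had 124, 165 and 112 CPM at 16 h, against 34.2, 44.1 and 33.3 CPM at 0 h (log2 change 1.85 ± 0.20, adjusted p = 2.5e-09), and PORC had 37.2, 65.3 and 18.8 CPM at 16 h, against 3.84, 7.08 and 5.99 CPM at 0 h (log2 change 2.86 ± 0.45, adjusted p = 3.7e-06). CAO, which makes chlorophyll b, was the gene that fell (log2 change -1.12 ± 0.31, adjusted p = 0.0032). In the list of the HY5 light pathway 9 rose and 4 fell of 15 tested. ELIP1, a photoprotective protein, had 569.9, 532 and 618 CPM at 16 h, against 0.622, 3.54 and 2.54 CPM at 0 h (log2 change 8.06 ± 0.45, adjusted p = 8.2e-16). HYH, the homologue of HY5, had 94.3, 182 and 125 CPM at 16 h, against 10.99, 16.4 and 6.397 CPM at 0 h (log2 change 3.58 ± 0.34, adjusted p = 5.0e-11), and CRY3 had 63.2, 48.5 and 47.03 CPM at 16 h, against 0.311, 2.41 and 3.55 CPM at 0 h (log2 change 4.66 ± 0.51, adjusted p = 4.8e-09). With the covariate 2 members of this list were called lower. The shade list ran the other way, with 1 riser and 8 falls among 16 tested. PIF4, a phytochrome-interacting factor, had 0.715, 0 and 0 CPM at 16 h, against 19.7, 24.3 and 28.9 CPM at 0 h (log2 change -6.52 ± 0.65, adjusted p = 1.9e-10), and HFR1 had 1.25, 1.21 and 1.08 CPM at 16 h, against 14, 15.6 and 16.1 CPM at 0 h (log2 change -3.68 ± 0.77, adjusted p = 1.7e-04). PIF7 was the riser (log2 change 1.29 ± 0.48, adjusted p = 0.028). With the covariate 4 falls of the shade list were called, and without 16 h replicate 3 no rise. The light given to segments after the cut is not stated in the sources used here.

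Clock genes were mostly lower at 16 h where they were called, and LHY was the only one called higher. CCA1 was not called higher. Of 16 tested, LHY, a morning gene, rose with 243, 205 and 146 CPM at 16 h, against 25.5, 32.03 and 22.7 CPM at 0 h (log2 change 2.89 ± 0.31, adjusted p = 1.3e-09), and 8 fell. GI, an evening gene, had 1.52, 2.61 and 1.58 CPM at 16 h, against 42.3, 37.98 and 38.9 CPM at 0 h (log2 change -4.38 ± 0.37, adjusted p = 4.3e-12). PRR7 had 1.79, 1.11 and 1.18 CPM at 16 h, against 51.4, 71.1 and 64.5 CPM at 0 h (log2 change -5.5 ± 0.47, adjusted p = 9.6e-12), and TOC1 had 7.15, 7.54 and 10.7 CPM at 16 h, against 34.8, 43.5 and 30.97 CPM at 0 h (log2 change -2.11 ± 0.37, adjusted p = 1.7e-05). No library overlapped between the groups in these genes. Collection at 16 h fell at another hour of the day than collection at 0 h, and the labels give no day length for the 5 days of low light.

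Markers of differentiated tissues were lower at 16 h in several lists. In bulk segments, fewer cells of a type and less RNA per cell cannot be told apart. Of 10 tested Casparian strip genes, which build the barrier of the endodermis, 8 fell and none rose (median -3.08), and their summed level was 108 to 139 CPM at 16 h and 859.7 to 926 CPM at 0 h. CASP1 had 19.4, 25.5 and 36.2 CPM at 16 h, against 219, 217 and 248 CPM at 0 h (log2 change -3.08 ± 0.29, adjusted p = 8.5e-11). ESB1 had 38.6, 45.7 and 33.1 CPM at 16 h, against 369.6, 414 and 350.5 CPM at 0 h (log2 change -3.27 ± 0.34, adjusted p = 8.0e-10). MYB36, the regulator of the strip genes, was at 22.4 ± 6.78 CPM at 16 h and 28.2 ± 1.88 CPM at 0 h (SD, n = 3 each, adjusted p = 0.26). In each alternative 8 of the 10 were called lower. Of 13 tested suberin genes 8 fell (summed level 51.1 to 82.0 CPM at 16 h and 184 to 306 CPM at 0 h). KCS2 had 10, 8.04 and 10.2 CPM at 16 h, against 48.4, 55.04 and 77.9 CPM at 0 h (log2 change -2.68 ± 0.27, adjusted p = 3.1e-10). Without 16 h replicate 3 the list gave 4 calls, and with the covariate 2.

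Of 15 tested genes of shoot epidermis and wax 11 fell and 1 rose (median -1.74), with a summed level of 981 to 1312 CPM at 16 h and 4090 to 5544 CPM at 0 h. ATML1, a homeobox gene of epidermal identity, had 18.04, 17.59 and 13.4 CPM at 16 h, against 143, 108 and 179 CPM at 0 h (log2 change -3.13 ± 0.28, adjusted p = 2.6e-11). FDH, of cuticle formation, had 46.9, 45.9 and 29.3 CPM at 16 h, against 311, 288 and 303 CPM at 0 h (log2 change -2.88 ± 0.26, adjusted p = 2.4e-11), and KCS1, of wax chain elongation, had 61.9, 31.8 and 75.9 CPM at 16 h, against 394, 209.6 and 949 CPM at 0 h (log2 change -3.19 ± 0.55, adjusted p = 2.7e-05). The groups were apart in all 3. LTPG1, a lipid transfer protein of the cuticle, was the riser (403, 455 and 319 CPM at 16 h, 142, 166 and 172 CPM at 0 h, log2 change 1.3 ± 0.22, adjusted p = 7.2e-06).

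Vascular lists fell less uniformly. Of 11 tested phloem genes 5 fell and 1 rose, and SUC2, the companion cell sucrose carrier, had 3.22, 2.41 and 4.44 CPM at 16 h, against 61.1, 53.6 and 76.2 CPM at 0 h (log2 change -4.24 ± 0.43, adjusted p = 7.4e-10). The list summed to 142 to 199 CPM at 16 h and 261 to 293 CPM at 0 h. NAC86, of sieve element enucleation, was the riser (1.97, 3.52 and 0.986 CPM at 16 h, 0.104, 0 and 0.102 CPM at 0 h). Of 13 tested xylem genes 5 fell and none rose, among them the cellulose synthase IRX5 with 4.56, 3.92 and 2.46 CPM at 16 h, against 15.6, 20.3 and 15.5 CPM at 0 h (log2 change -2.22 ± 0.37, adjusted p = 6.6e-06). Their summed level was 57.9 to 78.1 CPM at 16 h and 88.4 to 108 CPM at 0 h. XCP1 and XCP2, the proteases of dying vessel cells, were not called. Of 13 tested genes of cambium and HD-ZIP III factors 4 fell and 1 rose. The cambium receptor PXY had 5.002, 1.51 and 14 CPM at 16 h, against 26.6, 41.2 and 36.7 CPM at 0 h, with 16 h replicate 3 highest of its group (log2 change -2.35 ± 0.46, adjusted p = 8.5e-05), and WOX4 had 6.16, 5.03 and 2.17 CPM at 16 h, against 9.23, 11.6 and 12.1 CPM at 0 h (log2 change -1.29 ± 0.38, adjusted p = 0.0049). The summed level of the cambium list was 223 to 241 CPM at 16 h and 273 to 347 CPM at 0 h. With the covariate 2 members of it were called lower and none higher.

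Checks for tissue that a hypocotyl segment should lack gave little signal. The 7 root hair markers summed to 1.28 to 6.25 CPM at 16 h and 0 to 0.203 CPM at 0 h, with EXPA7, EXPA18, COBL9 and RHD6 at 0 in all 6 libraries. MOP10 alone of them passed the filter (4.47, 1.31 and 0.6902 CPM at 16 h, no read in any library at 0 h). The 5 root cap markers summed to at most 0.625 CPM at 16 h and had no read at 0 h. Among the 7 shoot apex markers CLV3 and CUC2 were at 0, and the sum of 25.5 to 45.5 CPM at 16 h and 95.04 to 127 CPM at 0 h came almost wholly from KNAT1, which hypocotyls also express. Guard cell markers summed to 3.72 to 4.47 CPM at 16 h and 2.90 to 11.1 CPM at 0 h, and seed storage markers to 0.0893 to 2.01 CPM at 16 h and 1.45 to 2.90 CPM at 0 h. Of the 5 pericycle and vascular markers 4 were tested, and PHO1 was the one called (log2 change -1.56 ± 0.25, adjusted p = 3.8e-06). With the covariate no root hair marker was called higher and no shoot apex or guard cell marker lower, against 1 in each of these lists without it. The labelled tissue thus carried its epidermal, endodermal and vascular markers. Root hair, root cap and meristem markers were at or near 0, apart from KNAT1 and from MOP10, which was called higher at 16 h.

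Cell wall and water transport genes also differed. Of 17 tested aquaporin genes 15 fell and none rose (median -2.35). TIP1;2, of the vacuole membrane, had 154, 142 and 156 CPM at 16 h, against 15400, 16080 and 17510 CPM at 0 h (log2 change -6.76 ± 0.35, adjusted p = 7.4e-17). PIP1;3, of the plasma membrane, had 77.9, 70.05 and 76.5 CPM at 16 h, against 1071, 1064 and 1343 CPM at 0 h (log2 change -3.95 ± 0.24, adjusted p = 1.9e-15), and PIP1;2 had 175, 259 and 242 CPM at 16 h, against 1857, 2031 and 1664 CPM at 0 h (log2 change -3.04 ± 0.26, adjusted p = 6.4e-12). In all 3 every 16 h library lay below every 0 h library. PIP2;5 and PIP1;4 were not called.

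Xyloglucan endotransglucosylases, which cut and rejoin wall polymers, rose in 9 of 16 tested genes and fell in 2 (median 1.4). XTH31 had 564, 803 and 719 CPM at 16 h, against 99.01, 72.9 and 121 CPM at 0 h (log2 change 2.83 ± 0.30, adjusted p = 1.3e-09). XTH33 had 22.2, 15.1 and 21.6 CPM at 16 h, against 1.55, 1.93 and 2.23 CPM at 0 h (log2 change 3.36 ± 0.40, adjusted p = 1.3e-08), and XTH24 fell with 184, 224 and 169 CPM at 16 h, against 916, 861 and 906 CPM at 0 h (log2 change -2.22 ± 0.28, adjusted p = 2.8e-08). Of 12 tested expansin genes 5 rose and 2 fell, and EXPA10 had 30.7, 37.1 and 38.8 CPM at 16 h, against 0, 1.93 and 0.102 CPM at 0 h (log2 change 6 ± 0.69, adjusted p = 2.1e-08). Without 16 h replicate 3, 3 expansins were called higher, and with the covariate 1 was called lower. SAUR genes, which auxin induces in elongating hypocotyls, were close to undetected in the mutant base at both times. SAUR64 was the only one of 18 tested that was called (no read in any library at 16 h, 0, 1.29 and 0.711 CPM at 0 h, thus at least 6.08-fold lower, with adjusted p = 0.0034), and 8 of the 18 had at most 3 reads in each group. In WT basal segments 17 of the 18 were called lower at 16 h, with SAUR15 at 0.1001 ± 0.173 CPM at 16 h and 3.25 ± 0.417 CPM at 0 h (SD, n = 3 each). The difference between the genotypes itself passed the test in 1 of the 18, SAUR66, which averaged 0.763 CPM at 16 h and 1.375 CPM at 0 h in ahk3 ahk4, against 0.466 and 12.1 CPM in WT (difference of log2 changes 3.77 ± 1.06, adjusted p = 0.0498), a call lost with the multi-mapped covariate (adjusted p = 0.31) and when some single libraries were left out.

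Nutrient and sugar genes rose and fell by pathway. Of 13 tested genes of nitrate and phosphate 9 rose and 1 fell (median 2.01). NIA2, nitrate reductase, had 780.5, 672 and 591 CPM at 16 h, against 50.7, 67.3 and 61.1 CPM at 0 h (log2 change 3.51 ± 0.23, adjusted p = 1.5e-14), and NIR1, nitrite reductase, rose by 1.85 on the log2 scale. PHT1;1, a phosphate carrier, had 485, 380.5 and 276 CPM at 16 h, against 0, 1.29 and 0.508 CPM at 0 h (log2 change 9.47 ± 1.62, adjusted p = 3.4e-05). Of 17 tested genes of sugar transport and starch 5 rose and 7 fell. SWEET11 and SWEET12, which release sucrose from phloem cells, fell, SWEET11 with 0.893, 0 and 0.493 CPM at 16 h, against 73.6, 34.8 and 114 CPM at 0 h (log2 change -7.26 ± 0.91, adjusted p = 1.6e-07). GPT2, a plastid glucose phosphate carrier, had 42.9, 25.5 and 23.96 CPM at 16 h, against 1.24, 0 and 1.32 CPM at 0 h (log2 change 5.02 ± 0.68, adjusted p = 1.1e-06), and GBSS1, a starch synthase, had 15.1, 9.75 and 15.8 CPM at 16 h, against 3.42, 1.61 and 1.32 CPM at 0 h (log2 change 2.65 ± 0.67, adjusted p = 0.0016). Of 10 tested starvation genes 4 fell and 1 rose. KMD4, of an F-box family that directs type-B response regulators to breakdown, had 4.64, 9.65 and 25.04 CPM at 16 h, against 202, 180.4 and 189 CPM at 0 h (log2 change -3.86 ± 0.56, adjusted p = 2.1e-06), and EXO rose (log2 change 2.33 ± 0.74, adjusted p = 0.011). No starvation gene was called higher without 16 h replicate 3.

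Stress genes outside the hormone lists gave a mixed picture. Of 12 tested heat shock genes 6 fell and none rose, while 2 were called higher with the covariate and 1 without 16 h replicate 3. HSP70, a cytosolic chaperone, had 118, 90.06 and 113 CPM at 16 h, against 2604, 2873 and 2287 CPM at 0 h (log2 change -4.6 ± 0.28, adjusted p = 3.5e-15). HSP90.1 had 21.1, 8.14 and 70.1 CPM at 16 h, against 635, 816 and 492 CPM at 0 h, with 16 h replicate 3 well above the other 2 (log2 change -4.29 ± 0.62, adjusted p = 2.0e-06). Of 14 tested redox genes 6 rose and 1 fell: CAT3, a catalase, fell with 734, 991 and 563 CPM at 16 h, against 8144, 7946 and 8413 CPM at 0 h (log2 change -3.42 ± 0.23, adjusted p = 3.0e-14). GSTU25 had 15.1, 19.5 and 36.9 CPM at 16 h, against 1.04, 0.483 and 1.01 CPM at 0 h (log2 change 4.74 ± 0.86, adjusted p = 5.1e-05), and CSD2, a superoxide dismutase, rose by 1.07 on the log2 scale. Of 11 tested low-oxygen genes 2 rose and 1 fell, with HB1, a haemoglobin, at 29.6, 26.03 and 30.96 CPM at 16 h, against 2.38, 2.25 and 3.25 CPM at 0 h (log2 change 3.44 ± 0.42, adjusted p = 1.6e-08), while ADH1 and PDC1 were not called. Without 16 h replicate 3, 2 low-oxygen genes were called lower. Of 14 tested glucosinolate genes 7 rose and 2 fell. BCAT4, which starts the methionine side, had 58.6, 47.5 and 41.02 CPM at 16 h, against 1.76, 1.13 and 1.12 CPM at 0 h (log2 change 5.17 ± 0.56, adjusted p = 8.9e-09), and CYP83A1 had 32.7, 57.7 and 29.4 CPM at 16 h, against 0, 2.25 and 2.64 CPM at 0 h (log2 change 4.64 ± 0.63, adjusted p = 5.7e-07). MYB34, an activator of the indole side, fell with 1.43, 1.21 and 2.07 CPM at 16 h, against 24.9, 30.9 and 19.9 CPM at 0 h (log2 change -4 ± 0.63, adjusted p = 3.2e-06). With the covariate 4 glucosinolate genes were called higher and 1 lower.

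The genes with the largest changes were partly outside the lists. Among called genes whose libraries did not overlap and whose higher group averaged at least 5 CPM, AT5G19890, annotated as a peroxidase, had 256, 379 and 198 CPM at 16 h, against no read in any library at 0 h (thus at least 2368-fold higher, with adjusted p = 3.7e-05). AT1G03940, an acyltransferase of the HXXXD family, had 21.2, 16.9 and 21.4 CPM at 16 h, against no read in any library at 0 h (thus at least 170.4-fold higher, with adjusted p = 1.2e-12). AT3G13610, a 2-oxoglutarate-dependent oxygenase, had 211, 207 and 124 CPM at 16 h, against 0, 0.161 and 0 CPM at 0 h (4670-fold higher by summed reads, 95% counting interval 838 to 184500, adjusted p = 1.4e-06). These were at or near 0 in every 0 h library. Also in the 12 highest were AT4G18422, AT2G39530, AT5G62210 and AT4G12500, a lipid-transfer type protein.

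At the other end OCT1, a carnitine transporter, had no read in any library at 16 h, against 36.6, 43.5 and 30.7 CPM at 0 h (thus at least 375-fold lower, with adjusted p = 8.6e-11). UMAMIT17, of an amino acid exporter family, had no read in any library at 16 h, against 28.1, 27.4 and 43.8 CPM at 0 h (thus at least 354-fold lower, with adjusted p = 5.6e-10). TIP2;3, an aquaporin, had 0.268, 0 and 0 CPM at 16 h, against 75.1, 72.9 and 90.07 CPM at 0 h (837-fold lower by summed reads, 95% counting interval 286 to 4064, adjusted p = 1.5e-06). AT1G19530 had 1.34, 0.101 and 1.58 CPM at 16 h, against 505, 562 and 462 CPM at 0 h (log2 change -8.95 ± 0.60, adjusted p = 2.1e-13). NAC074, DVL21 and AT1G77145 were among the others in the 12 lowest, each with at most 1 read over the 3 libraries at 16 h.

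Some of these groups share short promoter sequences. Promoters were taken as 250 bases before to 50 after the annotated start of 27443 protein-coding nuclear genes in RefSeq's TAIR10.1, and each motif was searched on both strands. None of the motifs contains another. The telo-box AAACCCTA stood in 5 of 11 ribosome biogenesis promoters (45.5%) and in 6 of 14 ribosomal protein promoters (42.9%), against 6.22% of all promoters, 9.29% of those of genes called higher and 2.74% of those of genes called lower. The element TGGGCC stood in 63.6% and 71.4% of the same promoters, against 15.5% of all, 25.2% of those of genes called higher and 14.3% of those of genes called lower. The letters TTTCCCGC, a form of the E2F site, stood in 9 of 19 replication promoters (47.4%), against 0.798% of all, and TTTGGCGC, another form, in 21.1% against 0.434%. AACGG, the core of the M-phase activator element, stood in 15 of 23 promoters of the mitotic list (65.2%), against 24.7%. The evening element AAAATATCT stood in 6 of 16 clock promoters (37.5%), against 2.82%. The G-box CACGTG stood in 4 of 10 flavonol, 2 of 5 late anthocyanin and 3 of 15 HY5-list promoters, against 7.68%. The auxin response element TGTCTC stood in 5 of 13 Aux/IAA (38.5%) and 4 of 7 GH3 promoters (57.1%), against 14.2%. In promoters of genes called higher, the E2F forms stood in 1.01% and 0.567%, against 0.524% and 0.31% of those of genes called lower. The M-phase core stood in 26.6% of the higher and 25.0% of the lower, and the evening element in 2.75% and 3.83%. The G-box stood in 8.49% of the higher and 9.9% of the lower, and the auxin response element in 13.0% and 13.7%. A match is a string of letters in a window and shows no binding.

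The comparison of 16 h with 8 h in the same mutant base covered the later hours alone. It called 1114 genes (5.62% of those tested), 535 higher (2.7%) and 579 lower (2.92%) at 16 h, and it shares its 16 h libraries with the main comparison. All 5 late anthocyanin enzymes were higher at 16 h than at 8 h, LDOX with 74.8, 58.4 and 55.2 CPM at 16 h, against 0.0738, 0 and 0 CPM at 8 h (adjusted p = 2.9e-12). DFR had 206, 116 and 114 CPM at 16 h, against 0.516, 0 and 0.172 CPM at 8 h (log2 change 9.07 ± 0.75, adjusted p = 4.9e-08). The flavonol branch had 1 gene higher and 1 lower, TT4 standing at 1548 CPM at 16 h and 1584 CPM at 8 h (adjusted p = 0.97). MYB111, a flavonol activator, was the gene that was lower, with 4.38, 2.92 and 1.48 CPM at 16 h, against 26.04, 22.9 and 24.6 CPM at 8 h (log2 change -3.06 ± 0.60, adjusted p = 0.0027).

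Photosynthesis genes were mostly higher at 16 h than at 8 h, 12 of 13 Calvin cycle genes and 13 of 18 antenna genes (1 lower). RBCS1A averaged 31.8 ± 2.04 CPM at 0 h, 113 ± 24.4 CPM at 8 h and 507 ± 182 CPM at 16 h (SD, n = 3 each; log2 change 2.16 ± 0.26, adjusted p = 5.9e-07 for 16 h over 8 h). LHCB2.1 averaged 123 ± 9.39 CPM at 0 h, 3.91 ± 1.26 CPM at 8 h and 57.1 ± 34.9 CPM at 16 h (log2 change 3.87 ± 0.43, adjusted p = 2.2e-07 for 16 h over 8 h). LHCB2.1 thus had its lowest mean at 8 h, and RBCS1A its lowest at 0 h. In the mitotic list 6 of 22 were higher at 16 h than at 8 h and none lower, CDKB2;2 with 13.2, 13.1 and 4.73 CPM at 16 h, against 1.18, 4.32 and 1.12 CPM at 8 h (log2 change 2.26 ± 0.48, adjusted p = 0.0028). None of the 19 replication genes was called between 8 and 16 h.

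Of the clock genes 3 were higher and 7 lower at 16 h than at 8 h. CCA1 averaged 17.4 ± 6.68 CPM at 0 h, 0.221 ± 0.383 CPM at 8 h and 11.1 ± 3.91 CPM at 16 h (log2 change 5.39 ± 0.79, adjusted p = 3.3e-05 for 16 h over 8 h). FKF1 and COR27 were lower at 16 h, FKF1 with 0.357, 0 and 0.0986 CPM at 16 h, against 12.2, 11.9 and 13.1 CPM at 8 h (log2 change -6.18 ± 0.89, adjusted p = 1.6e-05). Secondary wall genes of the xylem list were lower in 5 of 13, IRX1 with 4.198, 4.02 and 4.63 CPM at 16 h, against 28.2, 15.5 and 9.89 CPM at 8 h (log2 change -2.06 ± 0.36, adjusted p = 2.8e-04). AT4G23680 had 2.14, 2.51 and 6.51 CPM at 16 h, against 80.7, 34.2 and 102 CPM at 8 h (log2 change -4.28 ± 0.64, adjusted p = 7.4e-05). In PUCHI the difference between 16 h and 8 h was also called (log2 change 4.17 ± 1.07, adjusted p = 0.019), the only one among the 15 founder genes. Leaving out single libraries moved this count of calls between 231 and 700 higher and between 271 and 977 lower, with the most calls when 16 h replicate 3 was left out and the fewest without 16 h replicate 1.

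**Figure D3:**
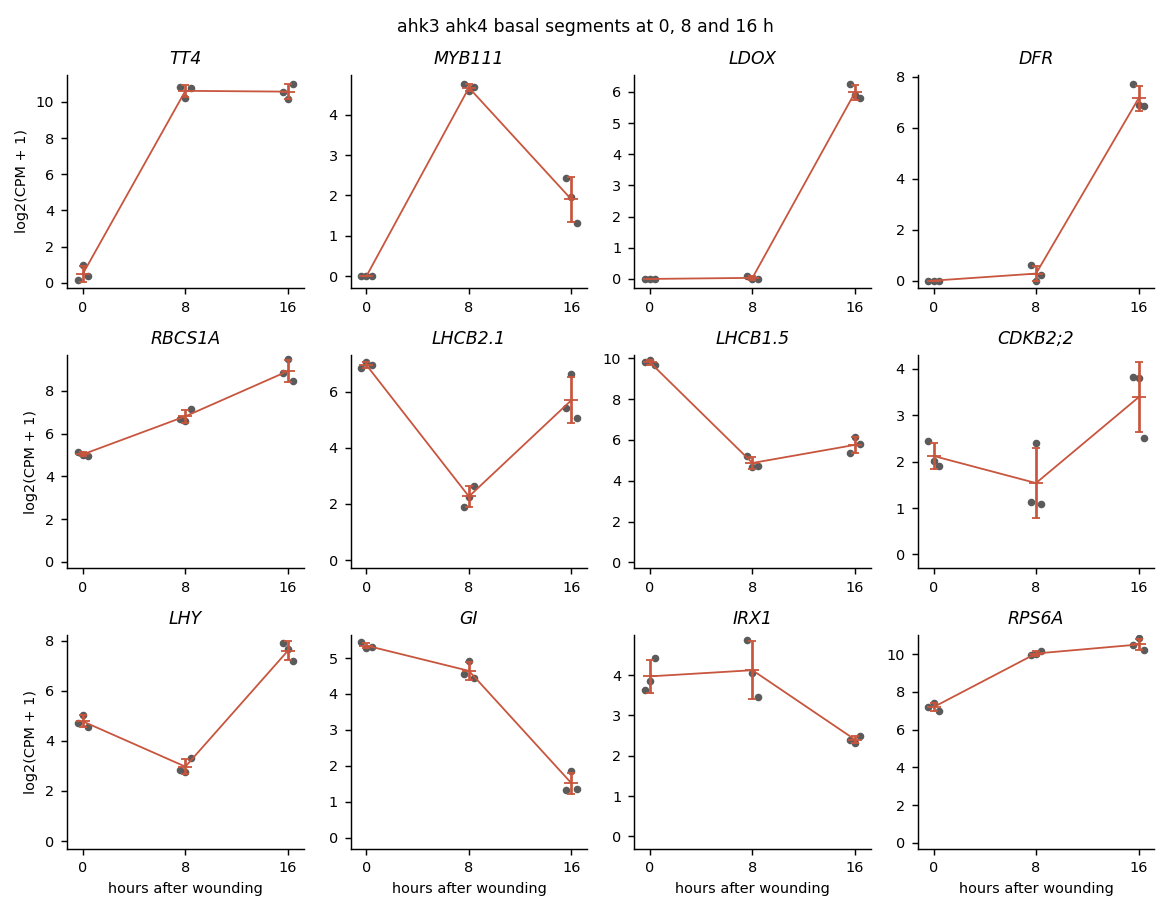
Level of 12 genes as log2(CPM + 1) at 0, 8 and 16 h after wounding in ahk3 ahk4 basal segments; grey points are single libraries, red bars the mean ± SD of 3 libraries, and red lines join the means. TT4 reaches its level by 8 h, LDOX and DFR are near 0 at 8 h and detected in all libraries at 16 h, and LHCB2.1 and LHY have their lowest mean at 8 h.

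Whether the mutant base changed differently from the WT base was tested as an interaction of genotype and time. A difference here is the log2 fold change in ahk3 ahk4 minus that in WT, and the test shares the 6 mutant libraries with the main comparison. It was above 0 in 253 genes (1.28% of those tested) and below 0 in 222 (1.12%), 475 in all (2.4%). The WT base itself had 3954 genes called higher and 3529 lower at 16 h. Of the 16 tested xyloglucan endotransglucosylases 5 differed, all above 0. XTH17 had 12.9, 8.95 and 22.7 CPM at 16 h and 4.46, 2.58 and 6.499 CPM at 0 h in ahk3 ahk4, against 7.21, 6.53 and 3.18 CPM at 16 h and 90.3, 80.1 and 44.7 CPM at 0 h in WT (difference 5.35 ± 0.81, adjusted p = 4.9e-04). XTH18 averaged 286 CPM at 16 h and 63.9 CPM at 0 h in ahk3 ahk4, against 89.4 and 140.4 CPM in WT (difference 2.81 ± 0.70, adjusted p = 0.029). XTH19, XTH23 and XTH16 gave differences in the same direction. In XTH17, XTH18 and XTH19 the mutant level at 0 h was the lower one. All 3 rose in the mutant, while XTH17 and XTH19 fell and XTH18 was not called in WT.

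Auxin-responsive genes differed in the same sense, with 3 Aux/IAA and 2 GH3 genes. IAA1 had 13.04, 10.4 and 14 CPM at 16 h and 7.15, 7.08 and 4.47 CPM at 0 h in ahk3 ahk4, against 25.4, 10.8 and 13.4 CPM at 16 h and 41.5, 47.8 and 24.7 CPM at 0 h in WT (difference 2.21 ± 0.49, adjusted p = 0.0096). IAA2 averaged 115 CPM at 16 h and 153 CPM at 0 h in ahk3 ahk4, against 74.4 and 411 CPM in WT (difference 2.05 ± 0.47, adjusted p = 0.014). GH3.6 averaged 23.1 CPM at 16 h and 9.29 CPM at 0 h in ahk3 ahk4, against 16.1 and 32.7 CPM in WT (difference 2.33 ± 0.37, adjusted p = 3.8e-04). IAA5 also differed (adjusted p = 0.0088), as did GH3.5 (difference 2.11 ± 0.50, adjusted p = 0.017). RGF6, a root growth peptide gene, had 3 reads at 16 h and 1 read at 0 h over the ahk3 ahk4 libraries and averaged 0.0357 CPM at 16 h and 26 CPM at 0 h in WT (adjusted p = 0.016). Mean levels at 0 h were lower in ahk3 ahk4 than in WT in each of these genes.

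**Figure D4:**
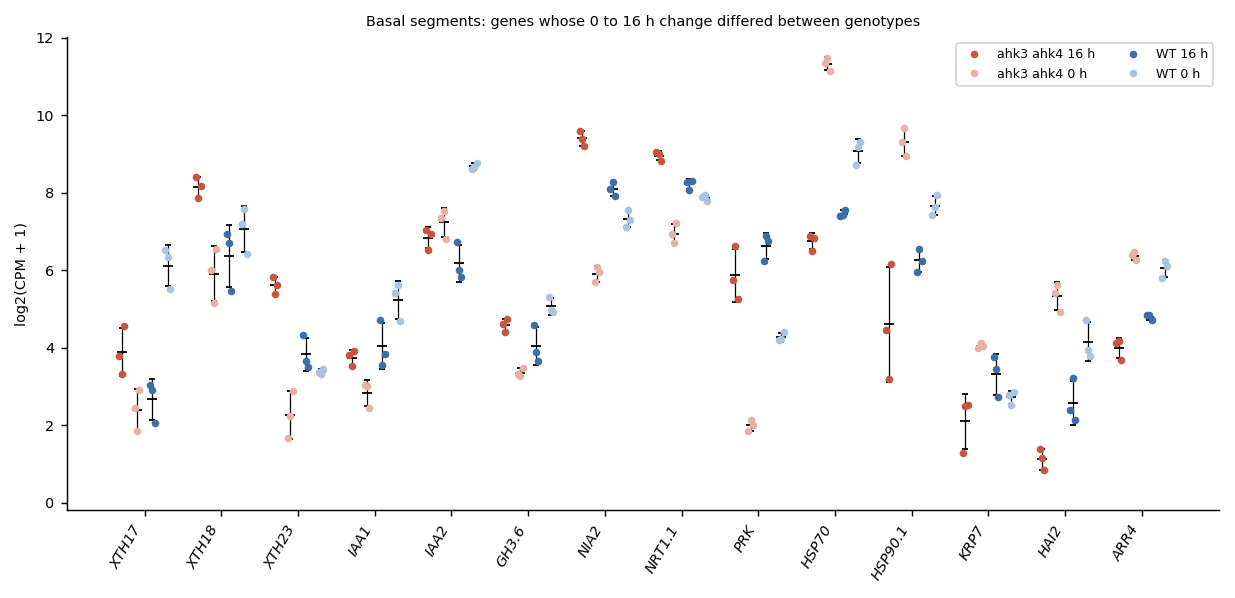
Level of 14 genes as log2(CPM + 1) in single libraries of basal segments, with ahk3 ahk4 16 h, ahk3 ahk4 0 h, WT 16 h and WT 0 h from left to right and black bars for the mean ± SD of 3 libraries. At 0 h the means of NIA2, XTH23 and GH3.6 are lower in ahk3 ahk4 than in WT, and those of HSP70, HSP90.1 and HAI2 are higher in ahk3 ahk4 than in WT.

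Further lists held few differences each. Of the nitrate genes NIA2 averaged 681 CPM at 16 h and 59.7 CPM at 0 h in ahk3 ahk4, against 276 and 161 CPM in WT (difference 2.74 ± 0.30, adjusted p = 6.8e-07), and NRT1.1 and LBD38 differed the same way (NRT1.1: difference 1.65 ± 0.28, adjusted p = 0.001). PRK differed above 0 (difference 1.94 ± 0.49, adjusted p = 0.026), as did RBCS2B (adjusted p = 0.0053), ZAT10 (difference 1.86 ± 0.50, adjusted p = 0.04) and BBX31 (difference 3.51 ± 0.96, adjusted p = 0.043). HSP70 averaged 107 CPM at 16 h and 2588 CPM at 0 h in ahk3 ahk4, against 175 and 546 CPM in WT (difference -2.96 ± 0.35, adjusted p = 2.9e-06). HSP90.1 (difference -2.87 ± 0.78, adjusted p = 0.047), HAI2 (difference -3.31 ± 0.78, adjusted p = 0.017) and AT1G19530 (difference -2.94 ± 0.67, adjusted p = 0.015) also fell further in the mutant. KRP7, a kinase inhibitor, averaged 3.595 CPM at 16 h and 15.5 CPM at 0 h in ahk3 ahk4, against 9.36 and 5.61 CPM in WT (difference -2.85 ± 0.52, adjusted p = 0.0019). ARR4 was the single type-A gene that differed, falling further in ahk3 ahk4 (difference -1.15 ± 0.30, adjusted p = 0.035). The call of ARR4 was lost with the multi-mapped covariate and also when some single library was left out, as were those of HSP90.1 and HAI2. TT4 and ELIP1 differed as well (adjusted p = 0.041 and 0.0028): TT4 averaged 1548 CPM at 16 h and 0.458 CPM at 0 h in ahk3 ahk4, against 1391 CPM and no read in WT. No member of the founder cell, replication, mitotic, Casparian, suberin or clock lists differed by this test. As 2.4% of all tested genes differed, lists of this size without a call are not shown to change alike in both genotypes. With the multi-mapped share as a covariate 68 genes differed above 0 and 54 below 0. Without ahk3 ahk4 16 h replicate 3 the numbers were 552 and 771, and without WT 16 h replicate 3 they were 114 and 103. The multi-mapped share of WT libraries was 23.0% to 27.8% at 16 h and 34.9% to 40.5% at 0 h.

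The change in the mutant base was set against that in the mutant's medial segments as an interaction of region and time, which shares the 6 basal libraries. A difference here is the log2 fold change in basal segments minus that in medial segments. It passed the test in 3366 genes (17% of those tested), above 0 in 1749 (8.82%) and below 0 in 1617 (8.16%), and the medial segments themselves had 3814 genes called higher and 3181 lower. Of the 10 Casparian strip genes 8 differed, all below 0. CASP1 had 19.4, 25.5 and 36.2 CPM at 16 h and 219, 217 and 248 CPM at 0 h in basal segments, against 607, 556 and 564 CPM at 16 h and 846, 403 and 541 CPM at 0 h in medial segments (difference -3.02 ± 0.39, adjusted p = 2.1e-06). ESB1 averaged 39.1 CPM at 16 h and 378 CPM at 0 h in basal segments, against 642 and 807 CPM in medial segments (difference -2.94 ± 0.45, adjusted p = 2.5e-05). In the medial segments 1 of the 10 was called.

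Antenna genes differed in 9 of 18, all below 0. LHCB1.5 averaged 54.3 CPM at 16 h and 894 CPM at 0 h in basal segments, against 909.5 and 1777 CPM in medial segments (difference -3.07 ± 0.39, adjusted p = 1.4e-06), and LHCA4 differed as well (difference -2.3 ± 0.35, adjusted p = 2.3e-05). Auxin and wall genes differed above 0 in 5 Aux/IAA, 2 GH3 and 8 XTH genes, and none of these lists had a difference below 0. XTH17 averaged 14.8 CPM at 16 h and 4.51 CPM at 0 h in basal segments, against 4.46 and 119 CPM in medial segments (difference 6.42 ± 0.83, adjusted p = 7.2e-06), and XTH18 differed as well (difference 4.7 ± 0.72, adjusted p = 5.8e-05). IAA14 rose in both regions and further in the base (difference 2.67 ± 0.71, adjusted p = 0.0087). IAA1 (difference 3.1 ± 0.50, adjusted p = 4.0e-05), IAA5 (adjusted p = 0.0061) and GH3.6 (difference 2.82 ± 0.38, adjusted p = 3.9e-06) differed in the same direction.

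Of the 19 replication genes 3 differed, all above 0, PCNA1 with 28.8, 38.3 and 18.7 CPM at 16 h and 4.35, 3.702 and 2.54 CPM at 0 h in basal segments, against 12.7, 7.75 and 7.07 CPM at 16 h and 1.78, 7.49 and 4.31 CPM at 0 h in medial segments (difference 2.01 ± 0.55, adjusted p = 0.01). CDT1A (difference 2.53 ± 0.72, adjusted p = 0.013) and TSO2 (difference 1.75 ± 0.36, adjusted p = 7.2e-04) were the others. The count of 3 was close to the share of all tested genes that differed in either direction (17%, with 8.82% above 0). Ribosomal protein genes rose in both regions, and 8 of 14 rose further in the base, RPS6A among them (difference 0.86 ± 0.28, adjusted p = 0.033). ACS2 rose in the base and not in the middle (difference 2.98 ± 0.59, adjusted p = 6.1e-04), and PER4, a peroxidase, averaged 24.2 CPM at 16 h and 0.103 CPM at 0 h in basal segments, against 0.988 and 1.17 CPM in medial segments (adjusted p = 9.9e-04). Differences below 0 were found for PXY (difference -2.56 ± 0.63, adjusted p = 0.0049), WRKY70, a salicylic acid factor (difference -5.13 ± 0.93, adjusted p = 3.2e-04), GPT2 (adjusted p = 0.022) and the glucosinolate genes CYP83A1 and BCAT4 (adjusted p = 0.0019 and 4.7e-04). BCAT4 rose in both regions, to 49.05 CPM in basal and 111 CPM in medial segments at 16 h. None of the 15 founder cell genes differed between the regions, though 9 were called higher in basal and 5 in medial segments. With the multi-mapped share as a covariate 643 genes differed above 0 and 847 below 0.

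**Figure D5:**
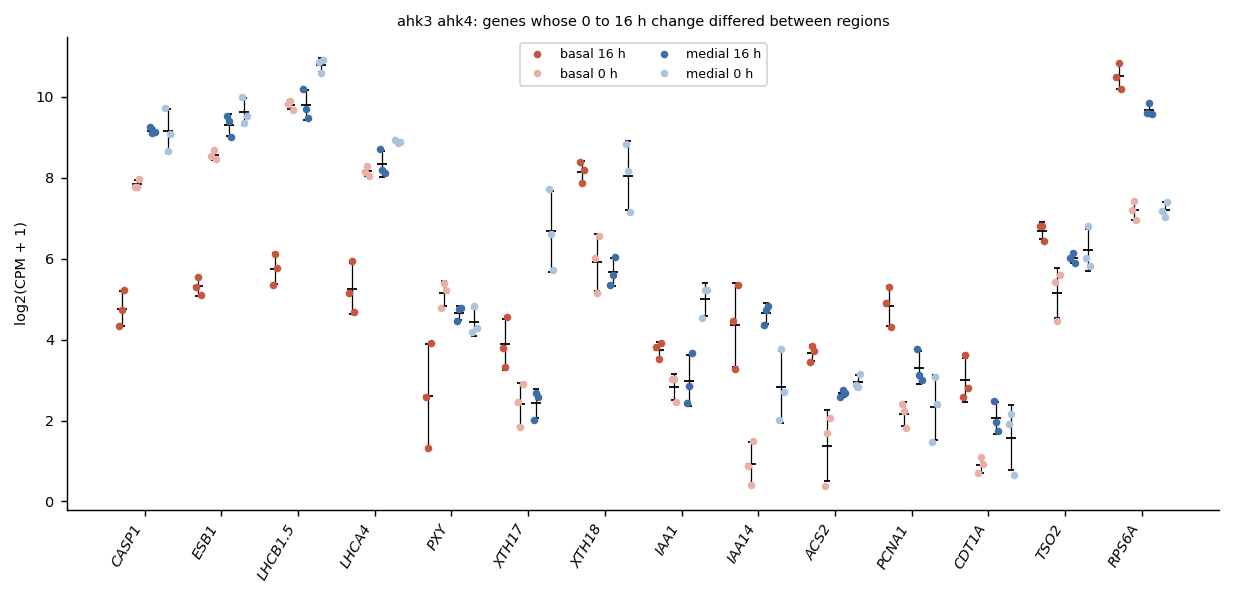
Level of 14 genes as log2(CPM + 1) in single ahk3 ahk4 libraries, with basal 16 h, basal 0 h, medial 16 h and medial 0 h from left to right and black bars for the mean ± SD of 3 libraries. CASP1 and ESB1 are lower at 16 h in the base without overlap and overlap between the times in medial segments, RPS6A is higher at 16 h in both regions, and XTH17 and XTH18 are higher at 16 h in the base and lower in the medial segments.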

How the data were processed

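RNA from hypocotyl segments was sequenced from the 3' end with the QuantSeq FWD kit, per the labels. The authors deposited 1 file per library with raw read counts per locus. HTSeq and DESeq2 are named, without versions, per the submitters' processing notes. For aligner, genome build, annotation and strand setting none was named in the sources used here. The 5 lines that name no gene were left out of library sizes and tests, and they held 4.59% to 62.2% of a library's reads. Assigned reads ran from 6136167 to 13557332 over the 36 libraries (median 9744646), so that 1 read in a library was worth about 0.1 CPM. In these libraries such precision limits cover counting error only.

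Counts were fitted with edgeR 4.0.16 in R 4.3.3 (TMM factors, filterByExpr on the 12 groups, robust glmQLFit, two-sided glmQLFTest). The fit had 1 mean per group over all 36 libraries and 24 residual degrees of freedom, and Benjamini-Hochberg adjustment ran over the 19819 loci tested. The code was tested on simulated counts of genes averaging at least 5 CPM. It recovered 25% of 100 genes changed 2-fold and 81% of 100 changed 4-fold, with 3.64% false among its calls. Only these genes, of 19543 tested there, differed between the simulated 16 h and 0 h groups. In the data 46.9% of tested genes were called, so neither the recovered nor the false share carries over to them. A gene that was not called is in any case not shown to be unchanged. A gene with at most 3 reads in a group is given by a bound (3 reads over the group) or by a ratio of summed reads with its 95% counting interval. Alternatives were DESeq2 1.42.0, its size factors in edgeR, no filter, organelle loci left out, only the groups compared, the replicate block, each of the 2 library shares as a covariate, and each library left out.

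The gene lists, 55 with 719 memberships paired to loci, were chosen with earlier results of these data known, as was the comparison. Lists are described by counts and medians without a set test, and values of some single members are not reported here. Outside them, genes were named from the 12 highest and 12 lowest called fold changes without overlap and with a higher group mean of at least 5 CPM, and likewise from 5 and 5 between 16 h and 8 h. Interactions were named from the 8 highest and 8 lowest and from the lists. RefSeq entries matched 32548 loci, and 10804 had a symbol of their own. Figures were drawn with matplotlib 3.10.9.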

Additional observations from a re-analysis of the deposited data

Results flagged for a closer look

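The changes of the following genes and counts are set apart because a test of the difference itself passed between genotypes or between regions. Between genotypes, in basal segments, 253 genes had a difference above 0 and 222 a difference below 0. Between regions, in ahk3 ahk4, the numbers were 1749 and 1617. Each gene's value below is the difference of log2 fold changes, or the adjusted p (quasi-likelihood test, edgeR) where a group had at most 3 reads.

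Ahk3 ahk4 minus WT, the differences were 5.35 for XTH17, 2.81 for XTH18, 4.95 for XTH19 and 3.02 for XTH23, which remodel walls. They were 2.21 for IAA1, 2.05 for IAA2, 2.11 for GH3.5 and 2.33 for GH3.6 among auxin-responsive genes, and 2.74 for NIA2 and 1.65 for NRT1.1 among nitrate genes. They were 1.94 for PRK, 1.86 for ZAT10, 3.51 for BBX31 and 3.77 for SAUR66. Differences below 0 were -1.15 for ARR4, -2.96 for HSP70, -2.87 for HSP90.1, -2.85 for KRP7, -3.31 for HAI2 and -2.94 for AT1G19530. The adjusted p was 0.0088 for IAA5, 0.0053 for RBCS2B, 0.016 for RGF6, 0.041 for TT4 and 0.0028 for ELIP1.

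Basal minus medial, the differences were 6.42 for XTH17, 4.7 for XTH18, 3.1 for IAA1, 2.67 for IAA14 and 2.82 for GH3.6. They were 2.98 for ACS2, 2.01 for PCNA1, 2.53 for CDT1A, 1.75 for TSO2 and 0.86 for RPS6A. Differences below 0 were -3.02 for CASP1, -2.94 for ESB1, -3.07 for LHCB1.5, -2.3 for LHCA4, -5.13 for WRKY70 and -2.56 for PXY. The adjusted p was 0.0061 for IAA5, 0.022 for GPT2, 0.0019 for CYP83A1, 4.7e-04 for BCAT4 and 9.9e-04 for PER4.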

How the results depend on the processing

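For 16 h against 0 h in the mutant base, each fit without a covariate called numbers within 1.5 times of the 4905 higher and 4398 lower genes (DESeq2 4847 and 4740, no filter on low counts 4498 and 4271, only the 6 libraries compared 4077 and 4103). With the share of multi-mapped reads as a covariate the fit called 3061 higher and 2497 lower, and with the share of reads outside genes 3039 and 2464. Both shares separate 16 h from 0 h in these libraries, and the cause of the loss was not tested. Leaving out single libraries gave 4346 to 4717 higher and 3649 to 4289 lower.

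For 16 h against 8 h, only the 6 libraries compared gave 264 higher and 223 lower, and leaving out single libraries gave 231 to 700 higher and 271 to 977 lower. For the difference between genotypes, DESeq2 called 516 above 0 and 487 below 0, only the groups compared 567 and 707, the covariate of reads outside genes 69 and 47, and the multi-mapped covariate 68 and 54. Leaving out single libraries gave 114 to 552 above 0 and 75 to 771 below 0, both highest without ahk3 ahk4 basal 16 h replicate 3. For the difference between regions, the covariate of reads outside genes gave 353 above 0 and 583 below 0, the multi-mapped covariate 643 and 847, and leaving out single libraries 1194 to 1996 and 1102 to 2069. The causes of these shifts were not tested.

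Of the 190 named genes called between 16 h and 0 h, 38 lost the call with the multi-mapped covariate, 24 when some single library was left out (adjusted p up to 0.38) and 2 with DESeq2 (LBD17 and LBD33). Calls lost with the covariate included AHK2, AHK3, AHP1, IPT3, GATA23, LBD17, LBD33, MAKR4, YUC6, CYCB1;1, AUR3, CYCA2;3, HFR1, PORC, TOC1, EIN2, MYB34 and PXY. Calls lost by leaving out a library included AHK3, AUX1, CYCA2;3, CYCB1;1, GH3.17, IAA1, IAA12, IAA13, IAA19, IPT2, LBD17, MAKR4, MYB75, PIF7, SHR, XTH17 and XTH19. For 16 h against 8 h, 19 of 52 named genes lost the call without some library. With only the compared groups 15 lost it, and with the multi-mapped covariate 5. Between genotypes 19 of 31 named genes lost the call without some library and 18 with the multi-mapped covariate. ARR4, XTH18, HSP90.1, HAI2, GH3.5 and SAUR66 were in both groups of genes. Between regions 20 and 27 of 64 did so, PCNA1, CDT1A, RPS6A and GPT2 in both. With reads outside genes as a covariate the difference between regions changed sign for CYCD1;1 (0.20) and KNAT1 (0.004).

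The replicate block gave 4863 higher and 4413 lower genes between 16 h and 0 h. It gave 521 and 592 against 8 h, 251 and 246 between genotypes and 1720 and 1659 between regions, and of the named genes SHR lost its call between 16 h and 0 h, 3 genes (XTH16 among them) between genotypes and 2 between regions. Same-numbered libraries of 16 h and 0 h did not deviate together (correlations -0.0032, 0.005 and -0.059), so the numbers were not taken to pair samples. Depth limits genes under a few CPM, where 1 read is about 0.1 CPM.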
